A study of Mus musculus with 10 samples.

Results

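Glutamate and GABA uptake and recycling were followed through 8 of the 33502 counted gene symbols: *Slc1a1*, *Slc1a2*, *Slc1a3*, *Slc6a9*, *Slc6a11*, *Glul*, *Slc38a1* and *Slc38a3*. They were taken by name for their known roles, and the rule that picked them used no measured value. Earlier results of these data were known when they were chosen. All 8 passed the filter on low counts when cell types were compared; *Slc38a3* did not pass it among neurons, and *Slc1a1* did not among astrocytes. Nuclei came from punches of the thalamic paraventricular nucleus (PVT) with its surroundings in C57BL/6J mice aged 12 weeks. The methods describe 4 mice pooled per sample for 4 biological replicates, and the sources used here give no number of mice for the female libraries. The labels name no treatment and no genetic change. There were 10 libraries, 6 labelled as female and 4 whose labels give no sex but whose nuclei are all listed as male in the deposited metadata. The library was the replicate, so that the p-values measure the spread between libraries.

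Glutamate that leaves a synapse is cleared mainly by 2 carriers of the astrocyte membrane, encoded by *Slc1a2* and *Slc1a3*. Inside the astrocyte, glutamine synthetase, encoded by *Glul*, turns it into glutamine. Glutamine leaves through the carrier encoded by *Slc38a3* and is taken up by neurons, a step in which the carrier encoded by *Slc38a1* takes part, to be made into glutamate or GABA again. *Slc6a11* encodes a GABA carrier typical of astrocytes, *Slc6a9* a glycine carrier, and *Slc1a1* the glutamate carrier usually assigned to neurons.

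All 8 genes are protein coding and lie on the mm10 assembly (GRCm38), the build named in the submitters' processing notes; positions are those of GENCODE M21. *Slc1a2* spans chr2:102658659-102790784 on the plus strand and *Slc1a3* chr15:8634124-8710764 on the minus strand. *Slc6a11* spans chr6:114131241-114249952 and *Slc1a1* chr19:28835049-28913960, both on the plus strand. Of the genes that overlap them, the ones on the same strand were *Gm37310*, with *Slc1a3*, and *Mir8114*, with *Glul*. Sequence before the transcription start is shown for 3 members that stood far apart in the results: *Slc6a11* and *Slc1a3*, which were far higher in astrocytes than in neurons, and *Slc1a1*, the member that was lower in astrocytes than in neurons. Each run is from RefSeq (GRCm38.p6), reads 5′ to 3′ on the strand of the gene, starts 250 bases before the RefSeq start and ends before the first annotated exon. Capitals mark the GC box GGGCGG on either strand (CCGCCC).

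Slc6a11, chr6:114130991-114131240, plus strand: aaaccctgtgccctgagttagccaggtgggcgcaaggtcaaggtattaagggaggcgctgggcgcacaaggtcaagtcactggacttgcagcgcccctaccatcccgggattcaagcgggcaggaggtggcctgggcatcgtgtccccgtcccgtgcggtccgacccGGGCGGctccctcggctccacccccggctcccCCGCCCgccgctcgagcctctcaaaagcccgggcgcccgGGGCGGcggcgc
Slc1a3, chr15:8710808-8711057, minus strand: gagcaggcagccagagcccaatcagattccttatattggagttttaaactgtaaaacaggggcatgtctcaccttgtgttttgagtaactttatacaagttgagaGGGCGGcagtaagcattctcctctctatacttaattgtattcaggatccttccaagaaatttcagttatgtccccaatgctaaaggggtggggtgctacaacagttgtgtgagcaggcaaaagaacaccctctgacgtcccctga
Slc1a1, chr19:28834885-28835048, plus strand: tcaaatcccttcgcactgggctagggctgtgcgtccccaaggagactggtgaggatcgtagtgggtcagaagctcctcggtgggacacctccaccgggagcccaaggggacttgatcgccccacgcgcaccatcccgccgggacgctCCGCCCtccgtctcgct

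*Slc6a11* and *Slc1a3* did not share one kind of start region. The 250 bases before *Slc6a11* were 71.2% G and C and held 3 GC boxes, those before *Slc1a3* were 44.8% G and C with 1 GC box, and those before *Slc1a1* were 70.4% G and C, against a median of 52.4% over 32851 start regions. A GC box was present in 32.7% of all start regions of this length. In the shorter run of *Slc1a1* there was 1 GC box, and 18.6% of all start regions held one in the same stretch. Neither the NFI-type site TTGGC nor the SOX-type site AACAAT, each searched on both strands, occurred in these 3 runs. In all, 41.5% and 9.42% of start regions of 250 bases held them. The RefSeq table matched 6 of the 8 members; *Slc38a1* and *Slc38a3* had no entry, and its start of *Slc1a2* lies 47.8 kb inside the gene.

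Counts were read as levels in the following way. UMIs (unique molecular identifiers, 1 per captured RNA molecule) were summed over the nuclei of a class in each library and scaled to a common library total (CPM, with TMM factors). CPM were used to compare classes for 1 gene, never to rank genes, and the scale differs between the comparison of types and the comparisons among neurons. The libraries held 5119927 to 55956635 UMIs, and the 8 deposited cell types differed in depth: the median neuron held 11157 UMIs, the median astrocyte 3006.5 and the median endothelial nucleus 1756. Sums of at least 10 nuclei were available in all 10 libraries for neurons, astrocytes, oligodendrocytes and microglia, in 9 for oligodendrocyte precursor cells (OPCs) and ependymal cells, in 8 for fibroblasts and in 7 for endothelial cells. For astrocytes and neurons, marker genes went with the deposited names: all 7 astrocyte markers were higher in astrocytes than in neurons and all 4 neuronal markers were lower. Each remaining type had all of its own tested markers higher than neurons. Every type set against neurons also had some markers of other types higher. All 7 astrocyte markers were higher in oligodendrocytes, OPCs, microglia and ependymal cells. Of the 6 oligodendrocyte markers, 5 were higher in astrocytes and 5 in microglia. The vascular types carried markers of each other. Fibroblasts had 3 of 4 endothelial markers higher (median log2 fold change 5.00, against 8.65 for their own). Endothelial cells had 3 of 3 tested fibroblast markers higher (5.04, against 11.6 for their own). The clusters were set by the authors on these same nuclei with these genes included, so tests between types describe the clusters. A gene was called where the log2 fold change (log2FC) was beyond 0.5 in either direction and the adjusted p below 0.05, the limits that the study's methods name, with edgeR's quasi-likelihood test, the library as a block and Benjamini-Hochberg adjustment over all genes tested.

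Astrocytes had higher CPM than neurons for 7 of the 8 genes and lower CPM for *Slc1a1*. Over the 9842 genes tested, 27.9% were called higher and 32.4% lower in astrocytes. The smallest of these differences was that of *Slc38a1*. Every one of these 8 calls was kept under each alternative in which the gene was tested. *Slc38a3* did not pass the filter on low counts among neurons alone, nor *Slc1a1* among astrocytes alone. Their counts in other types brought both into this test, so these calls describe a low side near the floor.

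*Slc1a3*, which encodes the glutamate and aspartate transporter GLAST, ranged from 2428 to 3936 CPM in astrocytes with a median of 3413, and from 8.39 to 42.8 CPM in neurons with a median of 23.5. The ranges did not overlap. The fitted log2FC was 7.03 (SE 0.24, adjusted p = 5.2e-39), and astrocytes exceeded neurons in 10 of 10 libraries. *Slc6a11* lay between 2404 and 3145 CPM in astrocytes (median 2786) and between 14.8 and 47.2 CPM in neurons (median 31.3). Its log2FC was 6.52 (SE 0.29, adjusted p = 4.7e-32), again with every astrocyte sum above every neuronal sum. *Slc38a3*, the glutamine carrier of the release step, had 134 ± 26.6 CPM in astrocytes and 1.22 ± 0.326 CPM in neurons (mean ± SD, n = 10 libraries), a log2FC of 6.71 (SE 0.17, adjusted p = 1.4e-46).

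*Slc1a2*, the main glutamate carrier of the forebrain, behaved differently from *Slc1a3*, because neurons also held a clear level of it. Astrocytes had between 2382 and 3213 CPM (median 2896) and neurons between 307 and 509 CPM (median 411). Both ranges were narrow and far apart, with a log2FC of 2.84 (SE 0.22, adjusted p = 2.7e-19). *Glul* had 647 ± 234 CPM in astrocytes and 31.6 ± 9.93 CPM in neurons (log2FC 4.30, SE 0.17, adjusted p = 4.1e-36). *Slc6a9*, whose product removes glycine, had 199 ± 23.9 CPM in astrocytes and 22.6 ± 2.33 CPM in neurons (log2FC 3.12, SE 0.12, adjusted p = 1.0e-35).

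*Slc1a1* ran the other way, and *Slc38a1* differed little. *Slc1a1* was lower in astrocytes, at 4.71 to 22.5 CPM (median 10.4), than in neurons, at 93.5 to 125 CPM (median 115). It fell by 3.08 on the log2 scale from neurons to astrocytes (SE 0.25, adjusted p = 2.0e-18), and in 0 of 10 libraries was the astrocyte sum the higher one. *Slc38a1*, a glutamine importer, was at 137 to 502 CPM in astrocytes (median 240) and 145 to 174 CPM in neurons (median 157). These ranges overlapped, the log2FC was 0.63 (SE 0.15, adjusted p = 8.6e-05), and astrocytes were higher in 9 of 10 libraries. CPM give a share of UMIs and not an amount per nucleus. A UMI of *Slc38a1* was seen in 63.3% of neurons and 31.6% of astrocytes (means over libraries). With every nucleus thinned to 1000 UMIs these shares were 11.2% and 17.2%.

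**Figure D1:**
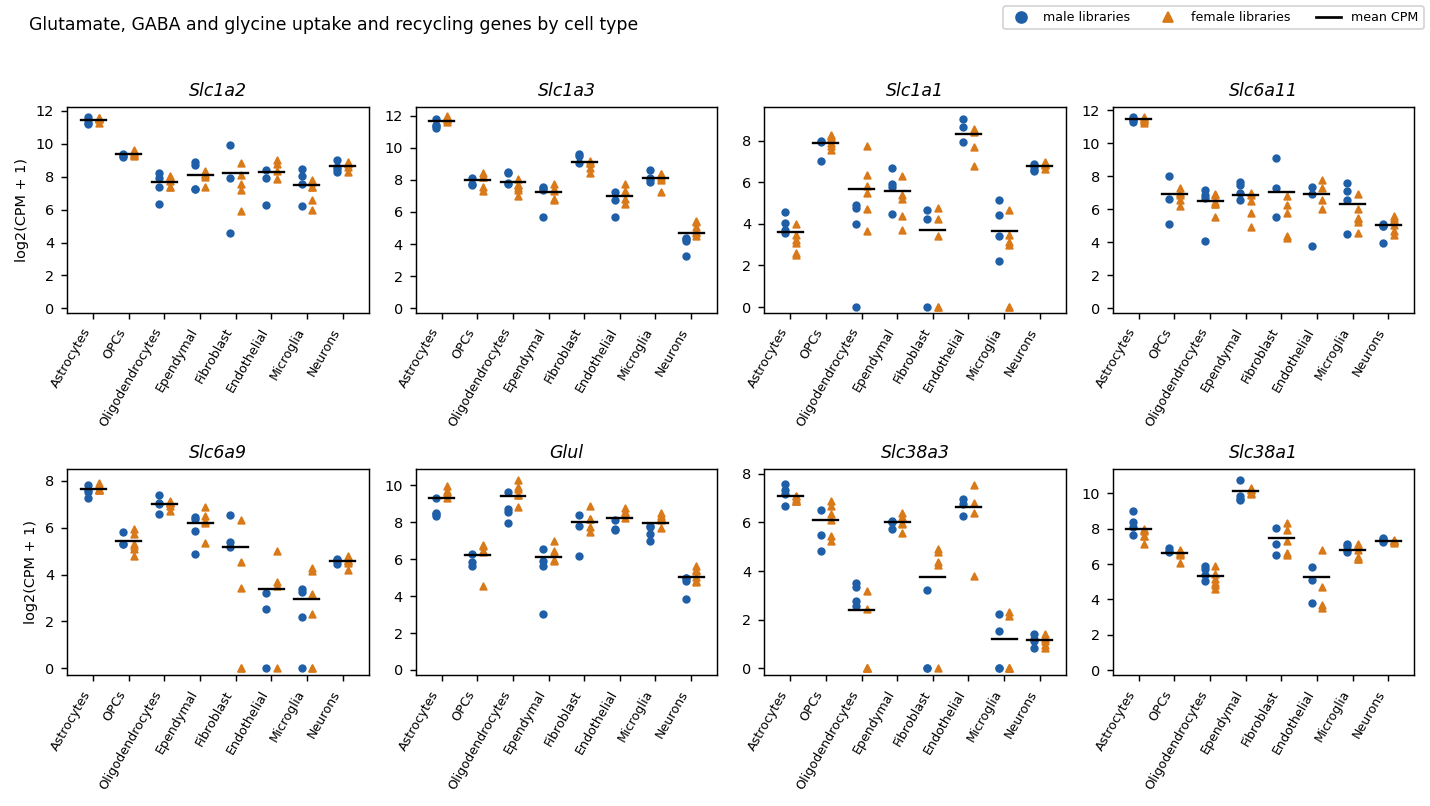
Level of each of the 8 genes in every library and cell type, as log2(CPM + 1) on the vertical axis; circles are male libraries, triangles are female libraries and bars are the mean CPM. Astrocytes sit above neurons for every gene except *Slc1a1*, where neurons lie at 93.5 to 125 CPM and astrocytes at 4.71 to 22.5 CPM, and *Slc38a1*, where the ranges overlap.

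Free RNA in the droplets can add counts of abundant astrocyte genes to other nuclei, so each level was set beside those of 7 astrocyte markers (*Agt*, *A2m*, *Aqp4*, *Gja1*, *Aldh1l1*, *Ntsr2* and *Fgfr3*), as a percent of the level in astrocytes. In neurons the markers were at 0.859% to 1.71% of their astrocyte level. *Slc1a3* at 0.777%, *Slc38a3* at 0.906% and *Slc6a11* at 1.14% were within or below that range. The part of free RNA in their neuronal counts was not tested. *Glul* at 4.89%, *Slc6a9* at 11.3%, *Slc1a2* at 14.3% and *Slc38a1* at 62.6% were above it. The summed level of the 7 markers was 16.5 to 72.8 CPM in neurons and 2677 to 6125 CPM in astrocytes. RNA of neurons can reach astrocyte droplets in the same way. Astrocytes had the 4 neuronal markers at a median log2FC of -4.02 against neurons, and the 1 tested gene of glutamate neurons at -2.82. The fall of *Slc1a1* lay between these values, and the part of free RNA in its astrocyte level was not tested.

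**Figure D2:**
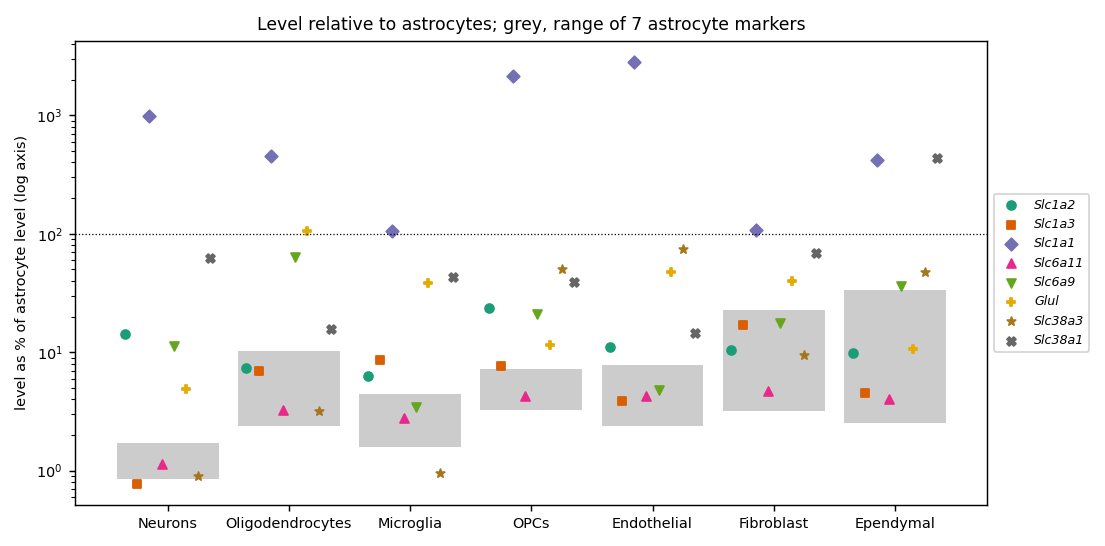
Mean level of the 8 genes in the other 7 cell types as a percent of the mean level in astrocytes (log axis); points are genes, the grey band is the range of 7 astrocyte markers in that type and the dotted line is 100%. In neurons *Slc1a3*, *Slc6a11* and *Slc38a3* lie at 0.777% to 1.14%, at the height of the band, while *Slc1a2* lies at 14.3%.

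Detection per nucleus showed the same split for *Slc1a2* and *Slc1a1*. After every nucleus was thinned to 1000 UMIs, *Slc1a2* had a UMI in 86.7% of astrocytes, 44.0% of OPCs and 24.5% of neurons (means over libraries), whereas *Agt* and *Gja1* had one in 1.25% and 1.08% of neurons. *Slc1a1* had a UMI in 0.956% of astrocytes, 8.01% of neurons, 20.9% of OPCs and 28.2% of endothelial nuclei. Without thinning, *Slc1a2* was seen in 77.7% and *Slc1a1* in 51.0% of neurons.

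**Figure D3:**
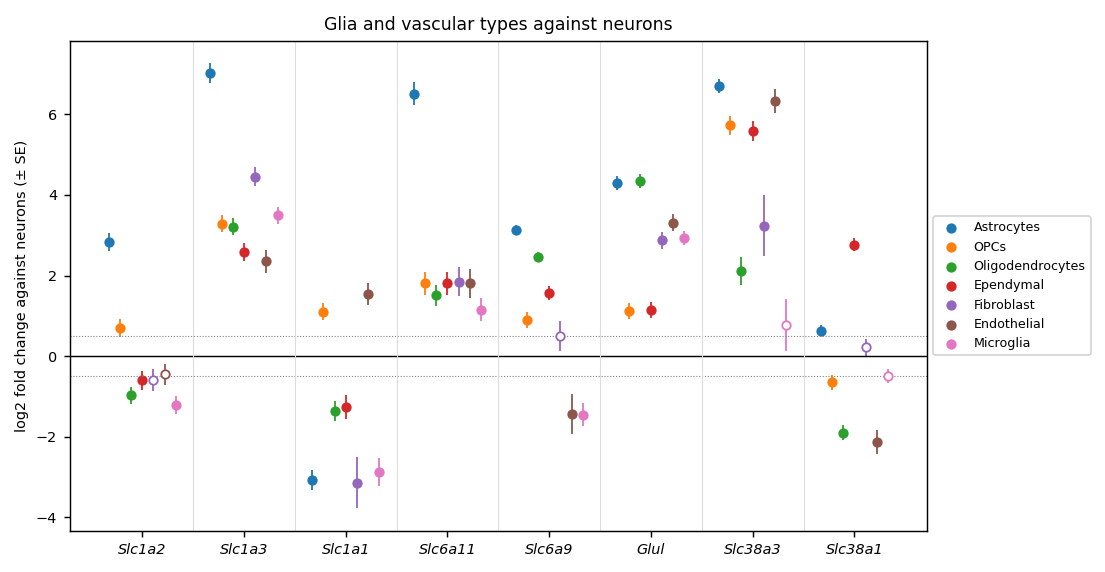
Log2FC of each gene in 7 cell types against neurons, with SE bars; filled points were called and open points were not, and dotted lines mark a log2FC of 0.5 in either direction. *Slc1a3* and *Slc6a11* are above neurons in every type, with astrocytes at 7.03 and 6.52, while *Slc1a1* is above neurons in OPCs and endothelial cells and below in the other 5 types.

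The other glia and the vascular types had between 3 and 7 of the 8 genes above neurons. OPCs had 7 genes higher and 1 lower (background 20.9% and 29.6% of genes tested), ependymal cells 6 and 2 (30.9% and 35.9%), oligodendrocytes 5 and 3 (27.5% and 35.6%), endothelial cells 5 and 2 (23.9% and 39%), fibroblasts 4 and 1 (16.4% and 32.3%), and microglia 3 and 3 (27.1% and 38.6%). With DESeq2's scaling the median over all genes shifted by 0.14 in astrocytes and by up to 0.39, in endothelial cells, and among called genes the share that was higher went from 41.4% to 56.6% in OPCs, from 46.3% to 58.4% in ependymal cells, from 38.0% to 51.9% in endothelial cells and from 33.6% to 54.1% in fibroblasts. No member changed direction with it.

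*Slc6a11* was called higher than in neurons in all 6 types, at log2FC values of 1.15 to 1.85, yet at 2.78% to 4.67% of its astrocyte level. That is within the range of the astrocyte markers in every one of the 6 types, for example 1.57% to 4.42% in microglia and 2.38% to 10.2% in oligodendrocytes. The share of free RNA in these calls was not tested. The call was lost in microglia with every nucleus thinned to 1000 UMIs (log2FC 0.63, adjusted p = 0.064), in fibroblasts with female libraries alone (0.94, adjusted p = 0.081) and in ependymal cells with nuclei of at most 1% mitochondrial UMIs (1.53, adjusted p = 0.052).

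*Slc1a2* had its second highest level in OPCs. OPCs held 579 to 779 CPM (median 661, n = 9 libraries), above all neuronal sums, and the log2FC against neurons was 0.69 (SE 0.22, adjusted p = 0.0058), with OPCs above neurons in 9 of 9 libraries. This was 23.5% of the astrocyte level, above the marker range of 3.22% to 7.19% in OPCs. Restriction to nuclei with at most 1% of mitochondrial UMIs brought the log2FC to 0.18 (adjusted p = 0.86), and male libraries alone gave 0.68 (adjusted p = 0.29). In oligodendrocytes, with 208 ± 63.8 CPM, and microglia, with 179 ± 90.3 CPM, *Slc1a2* was lower than in neurons (log2FC -0.98, SE 0.22, adjusted p = 6.0e-05 and log2FC -1.22, SE 0.23, adjusted p = 2.6e-06). With male libraries alone both calls were lost (adjusted p = 0.060 and 0.10). In endothelial cells (-0.46) and fibroblasts (-0.60) it was not called against neurons in the main test. It was called lower in both after thinning to 1000 UMIs (-0.78, adjusted p = 0.011 and -0.81, adjusted p = 0.0089) and with no filter on low counts (-0.71, adjusted p = 0.0085 and -0.88, adjusted p = 0.0013), and in fibroblasts without male replicate 4 (adjusted p = 0.0012).

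*Slc1a3* was above neurons in all 6 other types. Fibroblasts came next after astrocytes with 345 to 775 CPM (median 527, n = 8 libraries), a log2FC of 4.45 against neurons (SE 0.24, adjusted p = 6.5e-27). Fibroblasts in turn exceeded microglia, at 281 ± 64.2 CPM, by 0.96 on the log2 scale (SE 0.23, adjusted p = 4.4e-04). Microglia, OPCs and oligodendrocytes did not differ beyond their spread in this order. In microglia *Slc1a3* was at 8.62% of the astrocyte level and in OPCs at 7.62%, both above the marker ranges, which ended at 4.42% and 7.19%. In fibroblasts 16.9% lay inside a marker range of 3.20% to 22.7%, but only *Gja1* was higher. The next marker, *Aldh1l1*, was at 12.6%, and the median was 6.85%. After thinning to 1000 UMIs, *Gja1* had a UMI in 29.0% of fibroblasts. The levels in oligodendrocytes (7.00%), ependymal cells (4.53%) and endothelial cells (3.84%) also lay inside their marker ranges. In oligodendrocytes only *Aldh1l1*, at 10.2%, was higher, and the ependymal range reached 33.5% through *Aqp4*. Because single markers set the top of these ranges, a place inside them does not show free RNA. The share of free RNA in these levels was not tested.

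*Glul* was as high in oligodendrocytes as in astrocytes within the spread of the libraries. Oligodendrocytes held 247 to 1255 CPM (median 717) and astrocytes 325 to 1019 CPM (median 692), and the difference of 0.05 on the log2 scale had an SE of 0.15 (adjusted p = 0.82). Endothelial cells, fibroblasts and microglia formed a middle group at 305 ± 91.0 CPM, 259 ± 118 CPM and, in microglia, 128 to 369 CPM, all above neurons by log2FC values of 2.87 to 3.32. Neighbours within that group were not separated (adjusted p = 0.19 and 0.87). OPCs at 74.6 ± 27.8 and ependymal cells at 68.5 ± 32.6 CPM were lower, but above neurons at log2FC values of 1.13 (adjusted p = 1.4e-06 and 7.3e-07). The OPC call was lost after thinning (0.48, adjusted p = 0.28), and with nuclei of at most 1% mitochondrial UMIs both were lost (OPCs 1.09, adjusted p = 0.079; ependymal cells 1.28, adjusted p = 0.054).

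*Slc38a1* and *Slc38a3*, both carriers of glutamine, had unlike orders over the types. *Slc38a1* was highest in ependymal cells, the cells that line the ventricle, at 794 to 1756 CPM (median 1018, n = 9 libraries). Every ependymal sum exceeded every sum of the other 7 types, and the log2FC was 2.77 against neurons (SE 0.16, adjusted p = 2.3e-26) and 2.13 against astrocytes (SE 0.16, adjusted p = 2.4e-20). It was lowest in oligodendrocytes and endothelial cells, at 39.7 ± 12.7 and 37.2 ± 36.2 CPM, each below neurons. *Slc38a3* had its highest levels in astrocytes, at 134 ± 26.6 CPM, and in endothelial cells, at 99.8 ± 52.2 CPM (n = 7 libraries), which were not separated (log2 difference 0.37, SE 0.21, adjusted p = 0.15). OPCs with 67.5 ± 31.7 and ependymal cells with 63.7 ± 10.7 CPM followed. In microglia, *Slc38a3* had 0 UMIs in 6 of 10 libraries, and the value against neurons was a log2FC of 0.77 (SE 0.65, adjusted p = 0.29).

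*Slc1a1* was highest in endothelial cells and OPCs rather than in neurons. Endothelial cells held 110 to 525 CPM (median 340, n = 7 libraries), with a log2FC of 1.54 against neurons (SE 0.27, adjusted p = 7.2e-07). OPCs held 131 to 307 CPM (median 242, n = 9 libraries), all above the neuronal range, with a log2FC of 1.11 (SE 0.22, adjusted p = 1.4e-05). Endothelial cells and OPCs did not differ beyond their spread (log2 difference 0.43, SE 0.29, adjusted p = 0.24). In oligodendrocytes the level ran from 0 to 217 CPM with a median of 27.5, and the top value, from female replicate 2, came from 49 UMIs of which 35, or 71.4%, were in 1 of 111 nuclei.

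*Slc6a9* was highest in astrocytes, followed by oligodendrocytes. Oligodendrocytes, at 94.1 to 168 CPM (median 132), were below astrocytes by 0.66 on the log2 scale (SE 0.13, adjusted p = 6.5e-06) and above ependymal cells, at 71.5 ± 26.8 CPM, by 0.90 (SE 0.17, adjusted p = 5.5e-06). In oligodendrocytes it reached 64.2% of the astrocyte level, where the astrocyte markers reached at most 10.2%. Microglia at 6.87 ± 6.69 CPM and endothelial cells at 9.53 ± 10.8 CPM were below neurons (log2FC values -1.45 and -1.44, adjusted p = 3.8e-06 and 0.0089). The endothelial call was lost without male replicate 1 (adjusted p = 0.054) or 3 (adjusted p = 0.13) and with DESeq2 (adjusted p = 0.083).

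Across the 8 types, the genes whose mean log2 CPM ran most like a member were found by Pearson's r over 8 points, as a description. *Slc6a11* was most like *A2m* (r = 0.98), *Ptch1* and *Foxb1* (both r = 0.97), and *Slc1a2* most like *Atp1b2* (r = 0.96), *Cldn10* and *Celrr* (both r = 0.95). *Slc1a3* was nearest to *Dnajc1* (r = 0.96), *Agt* and *Son* (both r = 0.92), and *Slc6a9* to *Pantr2*, *Fam228b* (both r = 0.96) and *Rab11fip2* (r = 0.95). For *Glul* the genes were *Ppp2r5a* (r = 0.95), *Selenop* (r = 0.92) and *Tsc22d3* (r = 0.89), and for *Slc1a1* they were *Cd200* (r = 0.95), *Lrrn3* (r = 0.93) and *Ica1* (r = 0.92). *Slc38a1* ran most like *Rdh10* (r = 0.97), *Bphl* (r = 0.95) and *Stxbp4* (r = 0.94), and *Slc38a3* like *Afap1l2*, *Nr1d1* (both r = 0.94) and *Myo10* (r = 0.93). Among the members, *Slc6a11* had r of 0.85 with *Slc1a3* and 0.84 with *Slc1a2*, and *Slc1a1* had r of -0.60 with *Slc1a3*.

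A wider list of 25 genes of the same pathway, chosen by name, was counted beside the members. Of these, 16 passed the filter, with 11 higher in astrocytes, 3 lower and 2 not called, and a median log2FC of 2.66; the median over the 8 members was 3.71 and that over all genes tested -0.09. Among those with the largest rise were *Slc7a10*, a carrier of small neutral amino acids (log2FC 7.23, SE 0.19, adjusted p = 5.0e-46) and *Kcnj10*, a potassium channel of astrocytes (5.52, SE 0.19, adjusted p = 1.3e-38). Among those that were lower were *Slc38a2*, another glutamine importer (log2FC -1.27, SE 0.18, adjusted p = 2.3e-09) and *Got2*, the mitochondrial aspartate aminotransferase (-0.76, SE 0.12, adjusted p = 4.4e-08).

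Neurons were next split by at least 1 UMI of *Gad2*, which encodes a GABA-making enzyme, and of *C1ql3*, which the study uses to mark PVT neurons. Of 10410 neurons, 272 (2.61%) had *Gad2* only, 5983 (57.5%) *C1ql3* only, 592 (5.69%) both and 3563 (34.2%) neither. The classes differed in depth, with median UMIs of 8649, 12182, 13926.5 and 8777, and a neuron with neither gene may be one in which they were not captured. Without thinning, 7.73% of neurons had a UMI of *Gad2* and 59.9% one of *C1ql3*. In the other types these shares were 1.19% to 3.71% and 11.3% to 29.0%. With every nucleus thinned to 1000 UMIs, *Gad2* had a UMI in 1.46% of neurons, within the 0% to 2.65% of the other types, which was highest in OPCs. *C1ql3* had one in 18.8% of neurons and in 4.38% to 7.87% of the other types. The *Gad2* only class had the GABA genes *Gad1* and *Slc32a1* higher than the *C1ql3* only class (log2FC values 5.76 and 7.20), but it still held 276 CPM of the glutamate gene *Slc17a6*, against 511 CPM.

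*Slc1a2* was the only member called between *Gad2* only and *C1ql3* only neurons, where 3.87% of the 12758 genes tested were higher and 4.41% lower. Of the called genes 46.7% were higher, and 63.6% with DESeq2. The *Gad2* only sums ran from 123 to 361 CPM (median 227, n = 9 libraries) and the *C1ql3* only sums from 291 to 406 CPM (median 347, n = 10 libraries). The ranges overlapped, but in 9 of 9 libraries with both classes the *Gad2* only sum was the lower one. The log2FC of -0.51 (SE 0.11, adjusted p = 0.0012) stood at the limit of 0.5, and leaving out 1 library gave -0.58 to -0.41. It was under the limit without male replicate 1 (-0.48) or 3 (-0.41) and without female replicate 1 (-0.50), 3 (-0.47), 4 (-0.43) or 6 (-0.49), and DESeq2 gave -0.43. With 2 UMIs needed for either gene, the log2FC was -0.82 (adjusted p = 0.0012).

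The other 6 members tested in neurons were not called. *Slc38a1* had 145 ± 23.2 CPM in *Gad2* only and 116 ± 11.7 CPM in *C1ql3* only neurons, a log2FC of 0.32 (SE 0.10) that had an adjusted p of 0.020 and stayed under the fold limit. *Slc1a1* was at 89.1 ± 26.6 and 87.3 ± 8.98 CPM (log2FC -0.12, SE 0.13, adjusted p = 0.71). *Slc1a3* and *Slc6a11* had values of 0.83 (SE 0.36, adjusted p = 0.16) and 0.69 (SE 0.27, adjusted p = 0.097). The summed astrocyte markers had a higher mean in *Gad2* only neurons, at 75.8 ± 86.8 CPM, than in *C1ql3* only neurons, at 43.7 ± 19.5 CPM. Their medians were close, at 42.2 and 38.6 CPM, and the highest *Gad2* only library had 296 CPM. Of the 5 astrocyte markers tested, 0 were called. The part of these markers in the values of *Slc1a3* and *Slc6a11* was not tested. *Slc6a11* passed both limits when neurons with a UMI of 1 of 4 astrocyte markers were left out (0.72, adjusted p = 0.014) and without male replicate 2 (0.70, adjusted p = 0.032). Of the 25 pathway genes, 17 were tested, with 1 higher and 0 lower.

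Neurons with neither gene had 0 of 7 members called against the *C1ql3* only class by edgeR's test, where 6.64% and 7.45% of genes were called higher and lower. At an unadjusted p under 0.05, 3 members passed. *Slc1a2* had 274 ± 68.9 against 349 ± 37.2 CPM (log2FC -0.37, SE 0.08, adjusted p = 3.2e-04) and *Slc38a1* 143 ± 8.69 against 116 ± 11.7 CPM (0.29, adjusted p = 1.2e-04), both under the fold limit. Neurons with both genes also had 0 of 7 members called against *C1ql3* only (0.204% and 0.141% of genes), 0 at an unadjusted p under 0.05, and *Slc1a2* was at 343 ± 63.9 CPM (-0.05, SE 0.09).

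**Figure D4:**
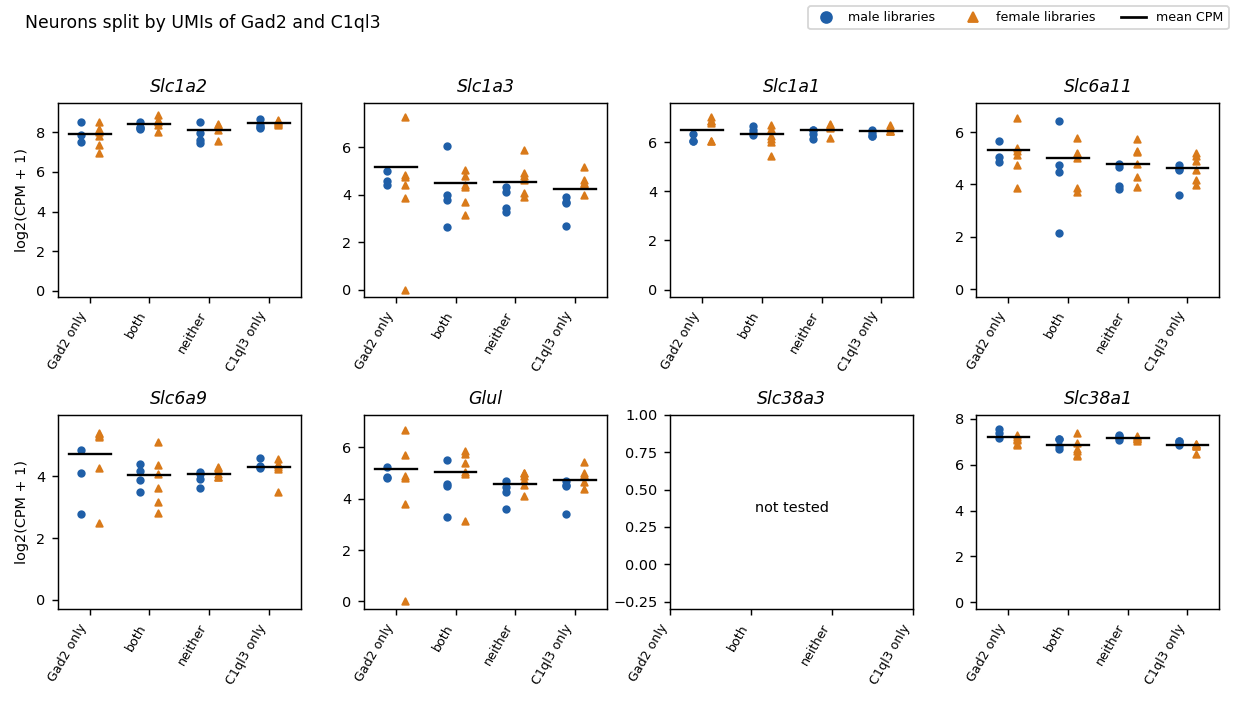
Level of each gene in neurons with UMIs of *Gad2* only, of both *Gad2* and *C1ql3*, of neither and of *C1ql3* only, as log2(CPM + 1) per library; circles are male libraries, triangles are female libraries, bars are the mean CPM, and *Slc38a3* did not pass the filter. *Slc1a2* has its lowest mean in the *Gad2* only class, at 123 to 361 CPM, against 291 to 406 CPM with *C1ql3* only.

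The levels also varied over the 8 deposited neuron clusters. Each was compared with the average of the other 7, and 13 of 56 tests of 7 members were called, 8 higher and 5 lower. Over all genes tested, 6.91% to 22.2% were called higher and 3.92% to 20.9% lower in a cluster. The count alone therefore does not set the members apart from other genes. *Slc1a2* had its lowest level in Neurons (6), at 84.6 ± 43.3 CPM (log2FC -1.81, SE 0.08, adjusted p = 2.4e-35), where 22.2% of genes were called higher and 20.9% lower. Its highest levels were in Neurons (8), at 461 ± 47.6 CPM (0.95, SE 0.06, adjusted p = 2.4e-25; 8.36% and 5.55% of genes), and Neurons (1), at 417 ± 34.8 CPM (0.79, SE 0.05, adjusted p = 8.2e-25; 6.91% and 5.11% of genes). Neurons (3), at 392 ± 37.6 CPM, was also higher (0.69, SE 0.05; 12.4% and 16% of genes).

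*Slc1a1* went with *Slc1a2* at the low end. In Neurons (6) it had 14.4 to 31.7 CPM and in Neurons (3) 115 to 163 CPM, with no overlap, and log2FC values of -1.97 (SE 0.10, adjusted p = 6.3e-32) and 1.03 (SE 0.05, adjusted p = 2.5e-31). *Slc6a9* was also lower in Neurons (6), at 8.69 ± 4.49 CPM (-1.11, SE 0.20, adjusted p = 5.2e-07). Neurons (6) held 917 nuclei with a median of 7084 UMIs. In the same cluster *Slc1a3* (0.68, adjusted p = 0.0021) and *Glul* (0.50, adjusted p = 1.3e-04) were higher. The *Glul* call stood at the limit: DESeq2 gave 0.47, and it was lost without male replicate 1 (0.50) or 2 (0.39) and without female replicate 1 (0.49), 3 (0.44), 4 (0.48), 5 (0.46) or 6 (0.49).

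Neurons (5), which held 152 of the 272 *Gad2* only neurons, had *Slc6a11* higher, at 46.1 ± 25.3 CPM (log2FC 0.94, SE 0.14, adjusted p = 6.2e-09), and *Slc1a3* higher, at 29.8 ± 20.4 CPM (0.75, SE 0.18, adjusted p = 5.2e-04; 11.5% and 7.51% of genes). The summed astrocyte markers were also highest in Neurons (5), at 75.4 ± 46.1 CPM, followed by Neurons (6) at 67.9 ± 41.3 CPM, with 34.6 to 61.3 CPM as means of the other 6 clusters; their part was not tested. With female libraries alone the *Slc1a3* calls in Neurons (5) (0.34, adjusted p = 0.38) and Neurons (6) (0.40, adjusted p = 0.29) were lost. *Slc1a3* was lower in Neurons (2) (7.36% and 4.54% of genes) and *Slc6a11* in Neurons (3), both at a log2FC of -0.61. By edgeR's test 0 members were called in Neurons (4) (11.8% and 10% of genes) and in Neurons (7) (7.07% and 3.92% of genes), where 4 and 2 had an unadjusted p under 0.05. Both clusters had a member just under the fold limit: *Slc38a1* at -0.45 in Neurons (4) (SE 0.06, adjusted p = 4.3e-10) and *Slc1a1* at 0.45 in Neurons (7) (SE 0.07, adjusted p = 1.6e-08). With female libraries alone both were called, at -0.62 (adjusted p = 5.1e-07) and 0.59 (adjusted p = 1.6e-05). *Slc38a1* was called in 0 of 8 clusters by edgeR's test over all libraries, with 6 clusters at an unadjusted p under 0.05, and its means ran from 91.6 to 157 CPM.

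**Figure D5:**
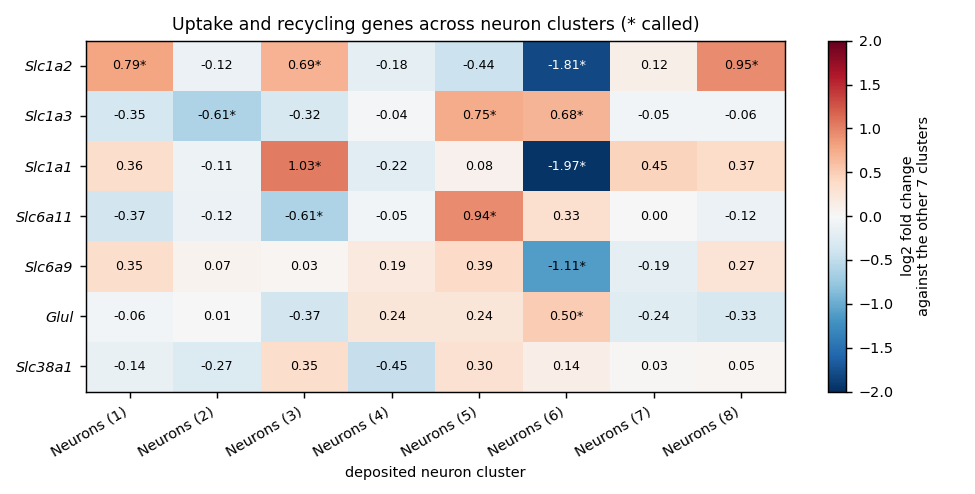
Log2FC of 7 genes in each of the 8 deposited neuron clusters against the average of the other 7 (colour scale from -2 to 2; an asterisk marks a call). Neurons (6) stands out with *Slc1a2* at -1.81, *Slc1a1* at -1.97 and *Slc6a9* at -1.11.

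Within astrocytes, *Glul* and *Slc6a9* differed between the 2 deposited clusters, where 14% of the 6091 genes tested were higher and 4.35% lower in Astrocytes (2). *Glul* had 881 ± 314 CPM in Astrocytes (2) (n = 9 libraries) and 495 ± 159 CPM in Astrocytes (1) (n = 10 libraries), a log2FC of 0.73 (SE 0.10, adjusted p = 3.0e-06), and *Slc6a9* had 250 ± 46.8 against 170 ± 32.9 CPM (0.57, SE 0.12, adjusted p = 7.1e-04). *Slc1a3* (0.49, adjusted p = 5.1e-04) and *Slc6a11* (0.40, adjusted p = 1.4e-04) stayed under the fold limit, and *Slc1a2* was not called (0.14, adjusted p = 0.17). *Slc6a9* was under the limit without female replicate 2 (0.49), and *Slc1a3* was over it without male replicate 2 (0.51), 3 (0.55) or 4 (0.54). With male libraries alone, of which 3 held both clusters, neither call was kept (*Glul* 0.19, adjusted p = 0.67; *Slc6a9* 0.35, adjusted p = 0.48), and *Slc38a1*, at -0.04 over all libraries, was called at 0.70 (adjusted p = 0.037). With no filter on low counts *Slc6a9* was at 0.46 (adjusted p = 0.014), under the fold limit. The summed astrocyte markers were higher in Astrocytes (2) as well, at 6644 ± 1153 against 4255 ± 945 CPM. The male Astrocytes (2) sums held 23 to 69 UMIs of *Slc38a1*. In male libraries the neuronal gene *Snap25* had a mean of 319 CPM (57.3 to 614) in Astrocytes (2) and 149 CPM in Astrocytes (1). *Syt1* had means of 316 and 174 CPM. The part of neuronal RNA in the male *Slc38a1* value was not tested.

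Male and female libraries also differ in sequencing depth and in the gene symbols that were counted, so sex cannot be told apart from these. In astrocytes, *Glul* was the only member called, among 0.938% of genes higher and 1.84% lower in male libraries. It had 325 to 648 CPM in the 4 male libraries and 646 to 1019 CPM in the 6 female ones, which overlapped by 1 library, with a log2FC of -1.01 (SE 0.23, adjusted p = 0.036). When single libraries were left out, the adjusted p lay between 1.2e-04 (without male replicate 2) and 0.13 (without male replicate 4). It was above 0.05 in 8 of those 10 fits, the exceptions being those without male replicate 1 or 2. In neurons 0 of 7 members were called by edgeR (1.12% and 1.24% of genes), 2 had an unadjusted p under 0.05, and DESeq2 called 1, *Slc1a3*, at -0.99 (SE 0.26 and adjusted p = 0.075 in edgeR). The summed astrocyte markers in neurons moved the same way, at 31.2 ± 10.0 CPM in male and 57.6 ± 17.0 CPM in female libraries, and their part was not tested. *Slc1a1* was the only member whose contrast of astrocytes and neurons differed between the sets: the log2FC was lower in female libraries by a difference of -1.22 (SE 0.27, adjusted p = 0.026 over all genes in edgeR), where 0.935% of genes had a higher and 1.59% a lower contrast. Without male replicate 3 or 4 or female replicate 3, 5 or 6 its adjusted p was 0.058 to 0.10. The value rests on few molecules: the astrocyte sums of *Slc1a1* held 3 to 8 UMIs in the female libraries and 7 to 118 in the male ones. Among astrocytes alone *Slc1a1* did not pass the filter on low counts, and its counts in other types brought it into this test. In astrocytes the neuronal genes *Snap25*, *Syt1* and *Slc17a6* had male minus female log2FC values of 0.60, 0.72 and 0.06, none called. The part of neuronal RNA in the *Slc1a1* difference was not tested.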

How the data were processed

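Nuclei were sequenced with the 10x Genomics 3′ kit. The deposited counts are UMI counts per gene and nucleus, made by the authors with Cell Ranger (6.1.1 and mm10 in the submitters' processing notes, and another version in the methods). The authors removed nuclei under 200 genes or above 5% mitochondrial reads and clusters read as doublets, and set clusters with Seurat and Harmony. The mitochondrial percent per nucleus was deposited by the authors and used in 1 alternative. No doublet caller was run here, and 46 of 20457 barcode sequences occurred in more than 1 library.

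Here UMIs were summed per library and class (at least 10 nuclei). edgeR 4.0.16 (TMM, filterByExpr, quasi-likelihood test, library as a block except between male and female libraries) was the main test and DESeq2 1.42.0 an alternative, run in R 4.3.3. Scripts were tested on simulated counts. Named were the 8 members, up to 3 called genes of the 25-gene pathway list in each direction, the 3 genes most like each member, and markers. Some genes that this rule names are not reported here. The members and lists were chosen with earlier results of these data known. Replicate numbers of male and female libraries are only names (correlations of same-numbered libraries -0.21 to 0.14).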

Additional observations from a re-analysis of the deposited data

Results flagged for a closer look

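In 4 male libraries, *Glul* in astrocytes had 648 CPM in replicate 2, which stood apart from 325 to 359 CPM in the other 3. In female libraries, *Slc1a2* in astrocytes had 2438 CPM in replicate 5, below 2879 to 3062 CPM in the other 5. *Slc6a11* in neurons had 14.8 CPM in male replicate 1, below 30.8 to 33.2 CPM in the other 3 male libraries, and the summed astrocyte markers in neurons were also lowest in that library, at 16.5 CPM. These 3 were flagged as a sample far from the rest of its group, among 32 groups tested, where chance flags about 1 in 20. The contrast of astrocytes and neurons for *Slc1a1* differed between female and male libraries by -1.22 on the log2 scale (SE 0.27, adjusted p = 0.026 in edgeR). The astrocyte sums behind it held 3 to 8 UMIs in female and 7 to 118 in male libraries. Leaving out single libraries, an alternative chosen after seeing the data, gave -1.43 to -1.01. What underlies these values was not tested.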

How the results depend on the processing

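Astrocytes against neurons had 7 members higher and 1 lower, also in each fit that left out 1 library. Over all alternatives run, 167 of 167 member values stayed on the same side of both limits. Not every member was tested in every alternative, so the number higher was not 7 in each. In the other types, with 30 higher and 12 lower, the lower calls numbered 7 with male libraries alone and 6 with nuclei of at most 1% mitochondrial UMIs; leaving out single libraries gave 30 higher in each fit and 10 to 14 lower. For *Gad2* only against *C1ql3* only neurons, members lower went from 1 to 0 with DESeq2, RLE size factors, female libraries, male libraries or at least 30 nuclei per sum. Members higher went from 0 to 2 with no filter on low counts and to 1 without neurons that held UMIs of astrocyte markers, and leaving out single libraries gave 0 to 1 in either direction. Between the astrocyte clusters, members higher went from 2 to 1 with no filter (*Slc6a9* lost, 0.46) or with male libraries (*Glul*, 0.19, and *Slc6a9*, 0.35, lost; the 1 call was *Slc38a1*, which reversed, at 0.70), and to 1 to 3 without single libraries. Between male and female libraries in astrocytes, members higher went from 0 to 1 with no filter, and lower from 1 to 0 with the replicate block (*Glul* -1.18, adjusted p = 0.14) and to 0 to 2 without single libraries. That block groups male and female libraries by replicate number, and these numbers are only names. In neurons, lower went from 0 to 1 with DESeq2 or no filter, and to 0 to 1 without single libraries. Neuron clusters had 8 higher and 5 lower, and 7 to 9 and 5 to 6 without single libraries. Without thinning, shares of nuclei with a UMI of *Slc1a2* were 96.9% in astrocytes, 77.7% in neurons and 78.6% in OPCs, and of *Slc1a1* 2.92%, 51.0% and 56.5%. The cause of these changes was not tested.

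Over all genes, astrocytes against neurons had 2743 higher and 3189 lower; no filter gave 4760 and 8104, thinning to 1000 UMIs 1153 and 1463, at least 30 nuclei 4133 higher, and the mitochondrial limit 1956 lower. Between male and female astrocytes 60 and 118 became 167 and 411 with DESeq2, and 6 and 11 with the replicate block, whose numbers are only names. Without the library as a block among neuron clusters, *Slc1a3* lost its calls in Neurons (2), (5) and (6) and *Glul* that in Neurons (6). *Slc6a9* in OPCs fell from 0.89 to 0.09 after thinning, and the ependymal call of *Slc1a2* (-0.60) was lost with DESeq2 (-0.35) and without male replicate 1 (-0.41) or female replicate 3 (-0.44) or 5 (-0.36).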
